A study of Drosophila melanogaster with 5 samples.

Results

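A gene group is a set of genes whose sequenced reads could not be told apart, so that the reads were counted for the set and for none of its genes alone. The counts of MMQuant, a program that gives such reads to a named set, held 12438 rows with a read in at least 1 of 5 libraries of single pars intercerebralis (PI) cells from Drosophila brains. Of these rows, 2492 joined 2 or more genes, and 763 of them are described here. The 763 groups were chosen by their read count, since a group was taken where it had 20 or more reads in at least 1 of the 4 cells that the study kept. At this limit, 7 groups had a highest count of exactly 20 reads, among them CG12099–Pex10, and another 7 had 19 reads and were left out, among them Dhpr–Use1.

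The PI is a small dorsal group of neurosecretory neurons that releases peptides, and some of its cells pass time-of-day signals from the clock neurons to locomotor behavior. GFP-labeled cells next to the insulin-producing (DILP) cells were harvested 1 at a time from flies in which the driver kurs58-GAL4 expressed UAS-mCD8::GFP at the membrane, or C767-GAL4 expressed UAS-nlsGFP in the nucleus, each with a single copy of driver and reporter, and all flies carried Dilp2mCherry, a marker of the DILP cells. Both drivers also label cells outside the PI, and the sources used here do not say which driver labeled which cell. Cells 1 to 4 were kept by the study as a single condition and cell D, called the discarded cell here, was excluded. The study gave indiscriminate read mapping as the reason for the exclusion. Each library has its own animal label, whereas the description of the series counts 4 animals.

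The poly(A) RNA of each cell went through 3 rounds of antisense RNA amplification, which leaves reads mainly at the 3′ ends of transcripts, and was sequenced as 100-base single reads without strand information. Where genes on opposite strands run toward each other and share their 3′ ends, a read from the shared stretch therefore fits both genes. The same holds for a gene inside another gene, for coding regions that are carried on a shared transcript (a dicistronic gene, such as stoned or Adh–Adhr) and for near-identical copies at separate places in the genome. A count table that accepts a read only where it fits a single gene, as the STAR table of this series does, leaves such reads out.

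MMQuant counted 4746969, 4591397, 4538000 and 4997042 reads in cells 1 to 4 and 5198114 in the discarded cell. On this total a single read was 0.200 to 0.220 RPM (reads per 1e+06 counted reads) in the kept cells, and a count of 0 allowed up to 3 reads, or 0.600 to 0.661 RPM. At 1 RPM of the STAR counts, 6, 9, 9 and 9 of 9 neuronal marker genes were present in cells 1 to 4 and 9 in the discarded cell. Their summed level was 1597, 3373, 9216 and 5437 RPM, and 21477 RPM in the discarded cell. The summed level of 6 peptidergic markers was 248, 567, 18500 and 356 RPM, and 3730 RPM in the discarded cell. Of these markers 3, 4, 5 and 5 reached 1 RPM in cells 1 to 4, and 5 in the discarded cell. Markers of other cells were present too. The 14 photoreceptor markers summed to 16069, 18509, 1999 and 48716 RPM (1356 in the discarded cell), and all 14, 13, 11 and 14 of them reached 1 RPM in cells 1 to 4 (12 in the discarded cell). The 8 fat body markers summed to 45255, 39242, 9872 and 17967 RPM (1009 in the discarded cell), with 6, 6, 5 and 6 of them at 1 RPM (5). The 8 glial markers summed to 1656, 2825, 5452 and 4722 RPM (1847), with 5, 7, 4 and 6 of them at 1 RPM (8). In cell 3, 19334 of the 22229 reads of the glial markers came from a single gene, bero, whereas Gs2 had the most in the other libraries. Their part in the values of single groups was not tested.

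Most groups were small. Of the 763 groups, 712 (93.3%) joined 2 genes, 31 joined 3, 15 joined 4, and 5 joined more, up to 9. The largest was the mod(mdg4) locus, a chromatin gene whose transcripts are spliced together from both strands of the locus. Its group of mod(mdg4) with 8 annotated precursor genes had no read in cells 1 to 3, 74 reads in cell 4 and 177 in the discarded cell, and a second mod(mdg4) group of 6 precursor genes had 1, 5, 0 and 20 reads and 19 in the discarded cell. A run of 7 tandem pseudogenes on the X chromosome, CR43211 to CR43217, had 41, 0, 0 and 14 reads and 213 in the discarded cell, and its group of 6 had 0, 1, 0 and 44 reads and 325. The group of 5 joins X-linked pseudogenes, CR32821 among them, and had 0, 8, 0 and 25 reads and none in the discarded cell. The 763 groups held 1500 genes, of which 1408 stood in a single group and 92 in more. The gene in the most groups was pre-rRNA:CR45856, the precursor of the ribosomal RNAs, which stood in 7. Among 7722 genes that had 20 or more reads alone or in a group in at least 1 kept cell, the 1500 made up 19.4%.

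The groups differed widely in depth. The median group had 148 reads in the cell where it was highest, 296 groups stayed below 100 reads in every kept cell, 383 had a highest count from 100 to below 1000, and 84 had 1000 or more. In cells 1 to 4, 529, 683, 414 and 684 of the 763 groups had a read, and 374, 504, 262 and 555 had 20 or more. Cell 3 held the fewest on both counts. In the discarded cell, whose counts did not enter the choice, 689 of the groups had a read and 74 had none.

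Together the groups took 8.14% of the counted reads of cell 1 (95% exact binomial interval 8.11 to 8.16%), 11.3% of cell 2 (11.2 to 11.3%), 8.89% of cell 3 (8.87 to 8.92%), 6.66% of cell 4 (6.64 to 6.68%) and 4.76% of the discarded cell (4.75 to 4.78%). These intervals cover counting error only, since amplified reads are not independent molecules. The mean over the kept cells was 8.74% ± 1.92 (SD, n = 4). A large part was ribosomal RNA. The 10 groups of ribosomal RNA genes and pseudogenes took 3.44, 7.08, 5.37 and 1.67% of the reads in cells 1 to 4 and 0.503% in the discarded cell, which was 42.3, 62.9, 60.4 and 25.1% of all group reads in the kept cells and 10.6% in the discarded cell. The other 753 groups took 4.70, 4.17, 3.52 and 4.99% of the reads (mean 4.35% ± 0.643, SD, n = 4), and 4.26% in the discarded cell. Without the ribosomal groups the kept cells thus lay between 3.52 and 4.99%, and the discarded cell lay within that range.

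**Figure D1:**
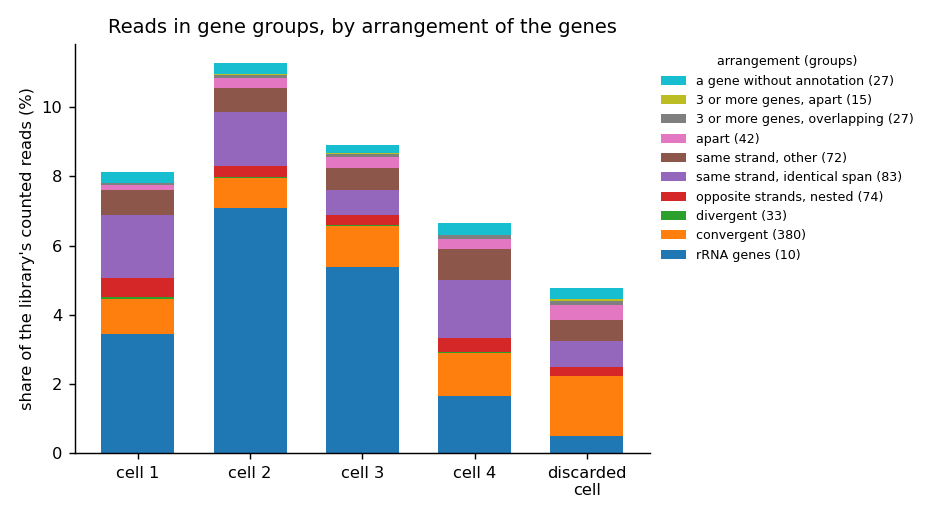
Share of each library's MMQuant reads, in percent, that fell in the 763 gene groups, stacked by the arrangement of the genes, with the number of groups in brackets. Each bar is a single library and has no error bar. The ribosomal part runs from 1.67 to 7.08% in cells 1 to 4 and is 0.503% in the discarded cell, whereas the sum of the other parts lies between 3.52 and 4.99% in all 5 libraries.

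Ribosomal groups made up 7 of the 10 groups with the highest mean level. The group of 18SrRNA-Psi:CR41602, pre-rRNA:CR45856 and 18SrRNA-Psi:CR45861 had 35960, 98628, 53152 and 15409 reads in cells 1 to 4 and 5661 in the discarded cell. These genes lie on the X chromosome, and 18SrRNA-Psi:CR45861 lies within the precursor gene pre-rRNA:CR45856. The group of pre-rRNA:CR45856 with 18SrRNA-Psi:CR45861 alone had 35389, 71890, 64673 and 14842 reads, and 5132 in the discarded cell. A group of large-subunit copies, 28SrRNA-Psi:CR40741 and 28SrRNA-Psi:CR41609, had 31135, 45323, 45004 and 22951 reads, and 8769. In these 3 groups cell 4 was lowest of the kept cells and the discarded cell lower still. All 10 ribosomal groups had reads in all 4 kept cells. Rows of a single ribosomal gene or pseudogene took a further 7.06, 12.1, 5.34 and 2.41% of the reads and 0.558% in the discarded cell. The reads that STAR reported as mapping to several places numbered 1274255, 2122925, 1399961 and 674719 in cells 1 to 4 and 317953 in the discarded cell, the same order of libraries as for the ribosomal groups. The part of these reads in the group counts was not tested.

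Outside the ribosomal genes a few groups held much of the reads. The 10 largest of the 753 other groups in each cell took 52.0, 49.9, 48.5 and 45.2% of the reads of such groups in cells 1 to 4, and 26.8% in the discarded cell. By the mean level over the kept cells the highest was CG10570–CG42502, a pair of genes of the same span on chromosome 2L, with 11168, 36157, 18770 and 28117 reads and 1569 in the discarded cell. Cell 2 was highest of the kept cells, and the discarded cell was below all of them. In cells 1 and 4 Adh–Adhr had more reads. RpL22–lncRNA:CR42491 joins the gene of a large-subunit ribosomal protein with a noncoding RNA on the same strand (X chromosome, 762560 to 765130 and 762615 to 763810 in dm6). It had 18676, 15788, 17361 and 20152 reads and 3880 in the discarded cell. Its level, as log2(RPM + 1), was 11.94, 11.75, 11.90 and 11.98 in cells 1 to 4, with an SD of 0.10, the smallest among the groups with 100 or more reads in at least 1 kept cell. Adh–Adhr, alcohol dehydrogenase and its related neighbor on a shared transcript (chromosome 2L, 14615552 to 14618902), had 33508, 14854, 1977 and 31145 reads and 1378 in the discarded cell. Cell 3 was lowest of the kept cells, and among these the fat body markers were also lowest there. The discarded cell was below cell 3 in both.

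The arrangement of the genes was taken from the annotation of the dm6 genome. In 684 groups both members of a pair had a position and the pair was not ribosomal. Of these, 380 (55.6%) were convergent, meaning that genes on opposite strands overlapped in exons at their ends. A further 33 were divergent and overlapped at their starts, 74 had a gene nested within another on the opposite strand, 83 shared an identical span on the same strand, and 72 overlapped on the same strand in another way. In 42 pairs the exons did not overlap at all. Among the pairs of genes that had reads in the 5 cells but stayed under 20 in the kept cells, 25% were convergent and 57.2% did not overlap. The word overlapping thus describes the 642 pairs with shared exon bases, and not the 42 pairs that lay apart. Of the remaining groups, 10 were ribosomal, 42 joined 3 or more genes, and 27 held a gene with no position in the annotation used.

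The share of the library followed another order than the number of groups. The 83 pairs of identical span took 1.82, 1.55, 0.739 and 1.67% of the reads in cells 1 to 4, and the 380 convergent pairs took 1.03, 0.879, 1.19 and 1.23%. In the discarded cell the identical pairs took 0.759% and the convergent pairs 1.73%. Convergent pairs thus took more than the identical pairs in cell 3 and the discarded cell, and less in cells 1, 2 and 4.

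In the convergent pairs the shared stretch lay mostly in 3′ untranslated regions. It had a median length of 245 bases, and in 243 of the 352 pairs in which both genes were protein-coding every shared base was annotated as the 3′ untranslated region of both genes. In the 82 protein-coding pairs of identical span, the shared bases included coding sequence in every pair, over a median of 1842 shared bases for the 83 pairs. Such a pair is annotated as separate coding regions on the same transcribed stretch.

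An annotated overlap often gave no group. Of 1521 convergent pairs among the genes of the count tables, 416 (27.4%) stood together in a group with 20 or more reads, compared with 33 of 386 divergent pairs (8.55%), 78 of 480 nested pairs (16.3%) and 118 of 188 pairs of identical span (62.8%). Among the convergent pairs with at least 1 gene that had 20 or more reads of its own, 366 of 1204 (30.4%) did. The shared stretch of the annotated convergent pairs had a median of 83 bases in all and of 248 bases in those that stood in a group. These shares are given as a description, since the groups were chosen by their reads.

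The 42 pairs whose exons did not overlap included known copies. In 1 pair the genes lie on different chromosomes, in 6 the gap is 10 kb or more, in 32 it is shorter but at least 100 bases, and in 3 it is below 100 bases, the length of a read. Hsp70Aa–Hsp70Ab, copies of the main heat shock chaperone gene on chromosome 3R with 1990 bases between them, had 2, 7095, 3 and 311 reads in cells 1 to 4 and 8863 in the discarded cell. Cell 2 and the discarded cell were high and cells 1 and 3 had almost none, and the SD of the level, 4.81 on the log2 scale, was the largest among the groups with 100 or more reads. RpS15Aa–RpS15Ab, small-subunit ribosomal protein genes on the X chromosome and 2R, had 1486, 828, 363 and 1075 reads and 285. Arc1–CR10102 joins Arc1, a capsid-forming gene of neurons, with a pseudogene 135 bases away, and had 160, 527, 3258 and 509 reads and 98. Cell 3 was highest. CG42638–Trpml, with Trpml the gene of a lysosomal cation channel, lies over a gap of 27505 bases and had 2, 2, 1472 and 1 reads and 411. Here too cell 3 was highest, and neither gene had a read of its own in a kept cell. phr–CG18853, with phr a DNA photolyase gene, had 3, 2, 2614 and 156 reads and 362. CG44140–CG44141, with 34563 bases between the genes, had 1679, 637, 91 and 649 reads and 8, and neither gene had a read of its own.

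A gene of a group can also have reads that fall outside the shared stretch, and then it is counted alone as well. In 325 of the 380 convergent pairs both genes had at least 1 such read over cells 1 to 4, in 53 only 1 gene had, and in 2 neither. The pairs of identical span were the reverse, with both genes counted alone in 2, a single gene in 11 and neither in 70. Genes of such a pair that share nearly all exon bases leave little room for a read of their own. The contrast therefore follows largely from the annotation. Both genes were counted alone in 14 of 33 divergent pairs, 35 of 74 nested pairs, 27 of 72 other pairs on the same strand and 21 of 42 pairs that lay apart. Over groups of all sizes, 319 had at least 1 gene without a read of its own. Of 1295 protein-coding genes in the groups, 318 (24.6%) had no read alone, and of 130 noncoding RNA genes 69 (53.1%) had none.

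**Figure D2:**
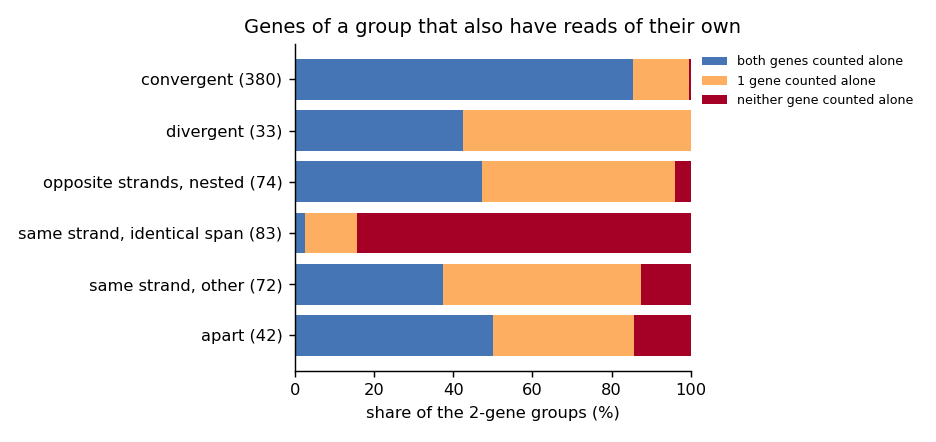
Share of the 2-gene groups, in percent, in which both genes, 1 gene or neither gene also had at least 1 MMQuant read of its own over cells 1 to 4, by arrangement, with the number of pairs in brackets. The convergent pairs are mostly counted alone on both sides (325 of 380), and the pairs of identical span mostly on neither (70 of 83). The latter follows largely from the exon bases that such pairs share.

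The STAR counts, which accept a read only where it fits a single gene, had no read of many of these genes. Of the 1500 genes, 645 had no STAR read in cells 1 to 4, and 417 had neither a STAR read nor an MMQuant read of their own. In 142 of the 684 pairs (20.8%) neither gene had a STAR read, of which 74 were among the 83 pairs of identical span and 26 among the 380 convergent pairs. The reverse occurred too, as CG32641 had 578, 62, 0 and 394 STAR reads but no MMQuant read outside its group with CG32640, which had 144, 1, 0 and 88 reads. The largest groups with no gene counted alone were CG10570–CG42502 and Pepck1–CG45087. Pepck1, a rate-limiting enzyme of glucose synthesis, shares its span on 2R with CG45087, and the group had 20935, 5903, 591 and 669 reads and 61 in the discarded cell. Cell 1 was highest, and cells 3 and 4 were lowest of the kept cells. inaF-B–inaF-D, which belongs to the inaF locus needed for the TRP channel of photoreceptors, had 642, 1029, 50 and 2396 reads and 121 in the discarded cell. The order of the 5 libraries was that of the photoreceptor markers at the upper end, with cell 4 first, cell 2 next and cell 1 after it, while the discarded cell and not cell 3 had the lowest marker level. CG14042–SP555 went the other way, with 313, 99, 2074 and 111 reads and 1129, highest in cell 3. CG17325–CG42305 had 1029, 1611, 771 and 1964 reads and 119, and anox–SLIRP1 had 745, 555, 1499 and 561 reads and 646. In 2 more of the 10 deepest such groups neither gene has a symbol or position in the annotation used, and they had 1551, 1963, 2432 and 4215 reads and 7102, and 1538, 627, 479 and 2632 reads and 849.

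For a convergent pair, the reads of the locus can be split into the shared part and the parts of each gene. Over pairs with 100 or more reads in the locus, the shared part had a median of 27.8% across 199 pairs of cell 1, 28.1% across 233 pairs of cell 2, 28.9% across 141 pairs of cell 3, 32.2% across 264 pairs of cell 4 and 41.9% across 285 pairs of the discarded cell. In each kept cell the pairs spread widely, with quartiles of 4.33 and 62.6% in cell 1 and of 10.4 and 64.4% in cell 4. More than 50% of the reads were shared in 67, 82, 48 and 90 of these pairs in cells 1 to 4. For 63 pairs with 100 reads in each of the 4 cells, the shared part of the same pair differed between cells by a median of 17.7 percentage points, by under 20 points in 33 pairs and by over 50 points in 8. Where the genes' own reads could be ranked in at least 2 cells, the same gene led in each of them in 186 of 265 pairs (70.2%).

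**Figure D3:**
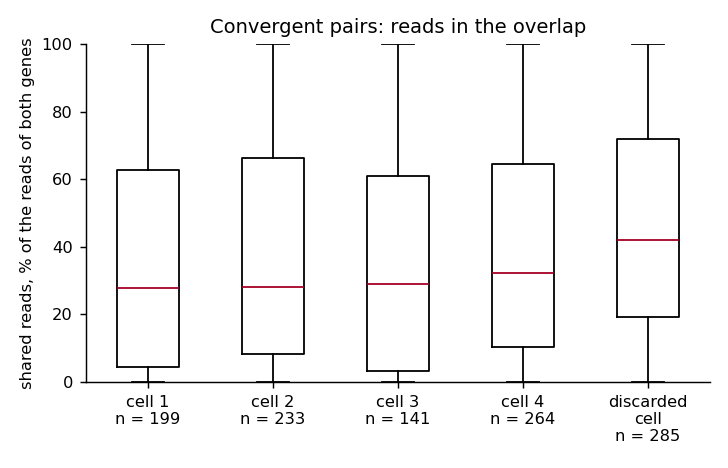
Shared reads as a percentage of all MMQuant reads of both genes, for convergent pairs with 100 or more reads in the library. Boxes show the quartiles, lines the medians and whiskers the full range over pairs, with n the number of pairs. The medians of the kept cells lie between 27.8 and 32.2% and that of the discarded cell is 41.9%, with wide and overlapping boxes in all libraries.

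Some groups kept a nearly fixed shared part. RpL22–lncRNA:CR42491 held 64.5, 69.6, 63.0 and 64.6% of the reads of its genes in cells 1 to 4 and 64.1% in the discarded cell. RpS9–asRNA:CR45874, a small-subunit ribosomal protein gene with a noncoding antisense gene inside it, had 7798, 4802, 6721 and 4665 reads and 1309 in the discarded cell, or 23.5, 22.1, 20.6 and 19.7% of its genes' reads and 22.3%. RpL23A–Uhg7, a large-subunit ribosomal protein gene with a small nucleolar RNA host gene, had 1064, 735, 866 and 915 reads and 200, or 15.5, 15.2, 18.1 and 18% and 17.5%. In these 3 groups all 5 libraries lay within 7 percentage points. Rnf11–PMCA, which joins a ubiquitin ligase gene and the plasma membrane calcium pump, also had a small SD in level (0.38, from 415, 442, 379 and 745 reads), but its shared part was 65.1, 33.4, 61.0 and 32.2%.

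Constancy across the kept cells was set beside the 7029 rows of 1 gene that passed the same limit of 20 reads. Of the 763 groups, 307 (40.2%) had a read in all 4 cells, against 44.3% of the rows of 1 gene, and 71 (9.31%) had reads in a single cell, against 8.62%. With 20 or more reads in all 4 cells, the groups numbered 126 (16.5%), against 21.5% of the rows of 1 gene. The groups were thus found in all cells at a somewhat lower share than single genes. They were also shallower. Within groups of 20 to 99 reads at most, 21.3% were in all 4 cells (11.5% of single genes), from 100 to below 1000 reads 43.6% (45.4%), and with 1000 or more 91.7% (90.4%). The median SD of log2(RPM + 1) between cells was 1.93 for groups and 2.12 for single genes. By depth the medians were closer, at 1.54 and 1.66 for 20 to 99 reads and 2.39 and 2.48 from 100 to below 1000. With 1000 or more reads they were 1.76 and 1.75, and 2.03 for such groups without the ribosomal ones. No test was made, as the same limit on reads chose both sets.

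**Figure D4:**
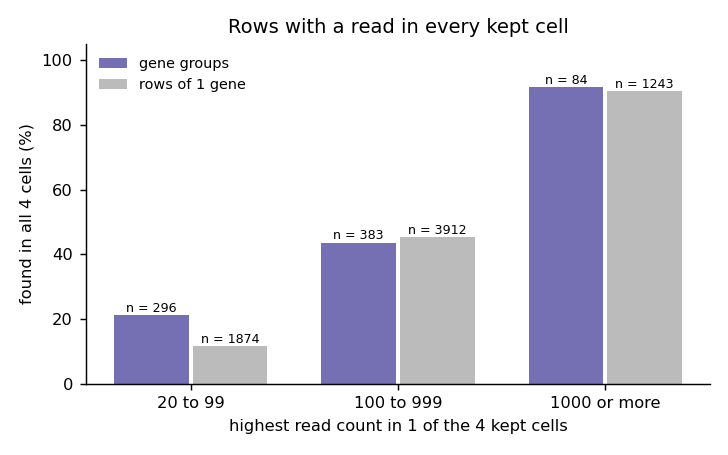
Share of rows, in percent, with at least 1 read in each of cells 1 to 4, for gene groups and for rows of 1 gene, by the highest read count in a kept cell, with n the number of rows. Groups of 20 to 99 reads are in all cells at 21.3% and single genes at 11.5%, while the shares lie within 2 percentage points from 100 to below 1000 reads and from 1000 upward.

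The cells were not equal in this. Of the 763 groups, 192, 172, 139 and 260 had their highest level in cells 1 to 4 (25.2, 22.5, 18.2 and 34.1%), compared with 21.5, 23.4, 18.4 and 36.7% of the rows of 1 gene. Cell 3 alone lacked a group that the other 3 cells had in 160 cases (21.0%), cell 1 in 66 (8.65%), cell 4 in 8 (1.05%) and cell 2 in 7 (0.917%). For the rows of 1 gene these shares were 17.9, 7.65, 1.18 and 1.21% for cells 3, 1, 4 and 2. Examples with large counts were Cys–asRNA:CR44095, a cysteine protease inhibitor gene with an antisense gene, at 2255, 2051, 1 and 2007 reads and 14 in the discarded cell, and CG5327–CG5493, at 1791, 550, 0 and 1672 reads and 3. Groups with fat body markers were low in cell 3 as well. Yp1–asRNA:CR45601, with Yp1 a yolk protein gene, had 4180, 704, 259 and 1683 reads and 72, and Lsp2–asRNA:CR11538, with Lsp2 a larval serum protein gene, had 113, 218, 0 and 55 reads and 1. The small group of Yp1, Yp2 and asRNA:CR45601 had 21, 5, 5 and 6 reads and none in the discarded cell. repo–CG7156, with repo the glial transcription factor, had 23, 9, 1 and 225 reads and 84. The part of RNA from other cells in these values was not tested.

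Genes of 5 lists of neuronal and secretory genes stood in 32 of the groups, of which 31 are named. Among the genes of each list that had 20 or more reads alone or in a group, a group held 1 of 20 neuropeptide genes (5%), 1 of 13 peptide processing genes (7.69%), 9 of 57 genes of synaptic release and transmitters (15.8%), 13 of 89 receptor and channel genes (14.6%) and 8 of 114 genes of the general secretory pathway (7.02%). The same share was 19.4% over all genes. The median highest count was 260 reads for the 8 synaptic groups, 92 for the 13 receptor and channel groups and 75 for the 9 secretory groups, against 148 for all 763. A read in all 4 cells was found in 3 of the synaptic, 5 of the receptor and channel and 5 of the secretory groups. Over all 763 groups it was found in 307 (40.2%).

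The peptide groups were both highest in cell 3 among the kept cells. SIFamide, a peptide of a few PI neurons that acts on feeding, sleep and rest:activity rhythms, is encoded by SIFa on 2R (24577566 to 24578143, minus strand), whose 3′ end shares 111 untranslated bases with Start1 (24574559 to 24577676, plus strand), a gene of lipid transfer. Start1–SIFa had 19, 0, 50 and 2 reads in cells 1 to 4 and 372 in the discarded cell. SIFa alone had 5, 1, 424 and 1 reads and 2781, whereas Start1 alone had 71, 9, 0 and 2 reads and 64. Cell 3 and the discarded cell, which had the most reads of SIFa alone, also had the most shared reads. Cell 1, with the most reads of Start1 alone, had 19 shared reads. Without strand the shared reads cannot be assigned to either gene. Added to the MMQuant reads of SIFa alone in cell 3, they moved its level from 6.56 to 6.72 on the log2(RPM + 1) scale.

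Pal2 encodes a lyase of the last step of peptide amidation, which gives many neuropeptides their active C-terminal end. It lies on 2R (23688077 to 23690838, plus strand) and shares 592 bases of 3′ untranslated region with CG30183 (23690247 to 23697824, minus strand). CG30183–Pal2 had 85, 69, 18693 and 146 reads in cells 1 to 4 and 2619 in the discarded cell. Cell 3 stood far above the others, and this was the largest count of any convergent group. The levels were 4.24, 4.00, 12.01 and 4.92 on the log2 scale, with an SD of 3.83, and 8.98 in the discarded cell. Pal2 alone had 0, 1, 1770 and 29 reads and 182, and CG30183 alone had 16, 9, 40 and 0 reads and 242. The shared part was 84.2, 87.3, 91.2 and 83.4% of the reads of both genes and 86.1% in the discarded cell. In the STAR counts Pal2 had 0, 1, 630 and 12 reads and 56. Its MMQuant reads alone gave a level of 8.61 in cell 3, and its own and shared reads together gave 12.14. With the shared reads Pal2 was at 1 RPM or more in all 4 cells, and without them in 2, although the shared reads may belong to either gene. The peptidergic markers, of which Pal2 is 1, were also highest in cell 3. Without Pal2 the other 5 summed to 248, 566, 18345 and 353 RPM and 3719 RPM in the discarded cell. In cell 3 a single gene, 7B2, gave 65394 of the 75425 STAR reads of the peptidergic markers, so the sum there mostly reflects that gene.

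After CG30183–Pal2, the deepest groups of these lists held genes of the synapse. stnB–stnA is the dicistronic stoned gene (X chromosome, 22980722 to 23004648), whose products act in the recycling of synaptic vesicles. It had 61, 68, 1526 and 255 reads in cells 1 to 4 and 5132 in the discarded cell, with cell 3 highest of the kept cells and the discarded cell above it. Neither gene had a read of its own in any library in the MMQuant or the STAR counts, so all evidence for stoned in these counts stands in the group. CASK–lncRNA:CRG joins CASK, a scaffold protein of the synapse, with a noncoding RNA on the same strand (3R). It had 413, 1075, 869 and 720 reads and 8348, the most even of the synaptic groups, with an SD of 0.62. CASK alone had 2, 259, 96 and 137 reads and 2306. The shared stretch of 2669 bases covers the whole noncoding gene in the annotation used, so this gene could not be counted alone.

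unc-13 on chromosome 4 (867824 to 912331, minus strand) encodes a protein that primes synaptic vesicles for fusion, and the antisense gene asRNA:CR43425 covers its 3′ end (867824 to 871426, plus strand). The group had 5, 101, 676 and 357 reads in cells 1 to 4 and 6670 in the discarded cell. unc-13 alone had 406, 591, 19 and 859 reads and 2380. The antisense gene had none, but it shares 3528 bases with unc-13, which leaves it little sequence of its own. The shared part was 1.22, 14.6, 97.3 and 29.4% and 73.7%, so cell 3 held nearly all of the reads of the locus in the shared stretch and cell 1 almost none. The level of the MMQuant reads of unc-13 alone was 6.44, 7.02, 2.37 and 7.43 in cells 1 to 4, lowest in cell 3. With the shared reads added it was 6.45, 7.25, 7.27 and 7.93, although the shared reads may belong to either gene.

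Rab3-GEF, the exchange factor of the vesicle protein Rab3, shares 461 untranslated bases on the X chromosome with Cyp4s3, a cytochrome P450 gene. Rab3-GEF–Cyp4s3 had 0, 1, 340 and 66 reads and 719 in the discarded cell. Rab3-GEF alone had 84, 846, 3 and 229 reads and 268, and Cyp4s3 alone had 1, 21, 59 and 13 reads and 62. As for unc-13, cell 3 had the most shared reads of the kept cells and the fewest reads of Rab3-GEF alone, and its shared part was 84.6%, against 0.115% in cell 2. Which of the genes gave the shared reads cannot be told apart without strand.

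The other groups of the synaptic list were highest in cell 2 or cell 4, or near-equal in cells 2 and 3. Syx1A–eIF4EHP, with Syx1A the syntaxin of synaptic vesicle fusion, had 0, 20, 0 and 179 reads and 1522 in the discarded cell. Syx1A alone had 298, 292, 0 and 318 reads and 2301, and eIF4EHP alone had 277, 534, 293 and 526 reads and 4558. Syn–Timp, with Syn the vesicle protein synapsin and Timp a metalloprotease inhibitor nested in it, had 26, 130, 0 and 48 reads and none in the discarded cell, where Syn alone had 7418 reads and Timp 6. HemK2–Snapin, with Snapin a partner of the fusion machinery, had 0, 100, 0 and 8 reads and 304, and neither gene had a read of its own. Rbp9–Ts, with Rbp9 a neuronal RNA-binding protein of the ELAV family and not part of the release machinery, had 0, 41, 42 and 0 reads and 1031, against 864, 499, 1995 and 766 reads of Rbp9 alone and 2953. In 7 of these 8 synaptic groups the discarded cell had more reads than any kept cell, as it did in 243 of all 763 groups (31.8%) and in 144 of the 380 convergent pairs (37.9%). Its summed neuronal markers were also the highest, as were the 8 markers other than Rbp9 (21036 RPM, against 1377 to 8736 RPM in the kept cells).

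**Figure D5:**
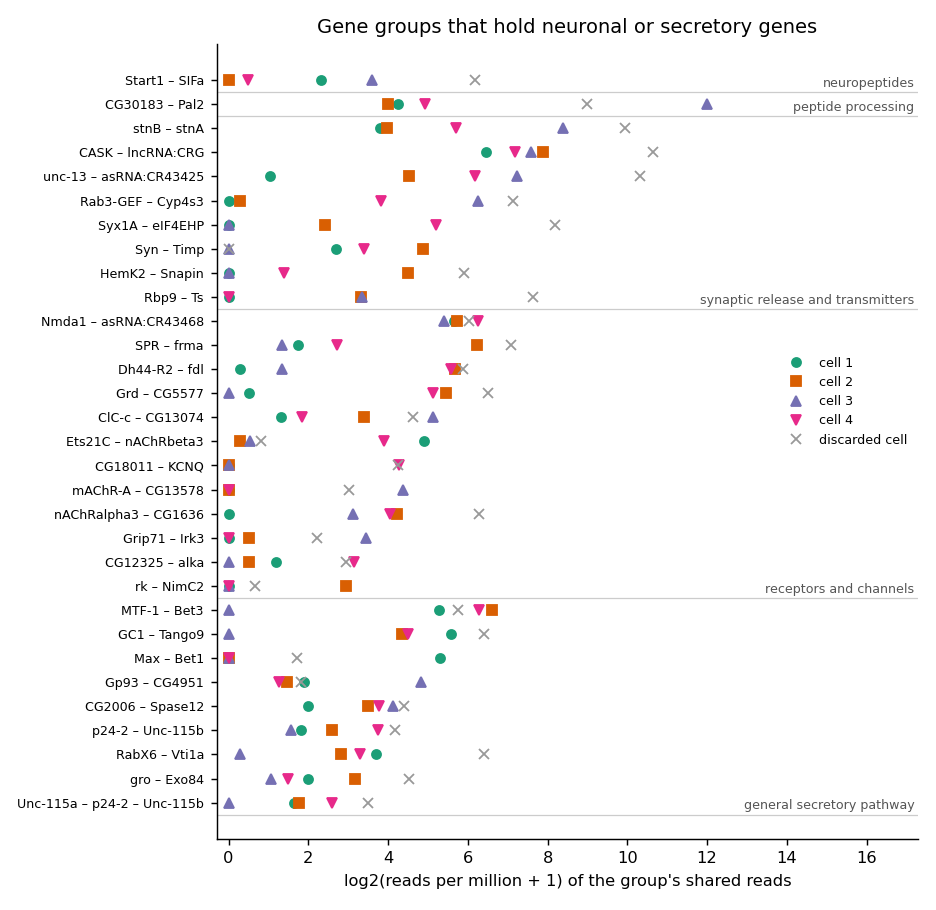
Level of the shared reads, as log2(RPM + 1), of 31 groups that hold a gene of the lists for neuropeptides, peptide processing, synaptic release and transmitters, receptors and channels (the 12 deepest of 13) or the general secretory pathway. Each symbol is a single library and there are no error bars. CG30183–Pal2 reaches 12.01 in cell 3 and 4.00 to 4.92 in the other kept cells, while Nmda1–asRNA:CR43468 lies between 5.39 and 6.26 in the kept cells.

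Of the 13 groups with receptors or channels, 12 were convergent. The study had already marked each receptor and channel gene named below for ambiguous mapping at an overlapping 3′ end. It cautioned that the levels of such genes may be underestimated. Nmda1, listed by the study with the receptors and named for an association with the NMDA receptor, of which it is not a subunit, shares 187 bases with asRNA:CR43468 on 2R. Nmda1–asRNA:CR43468 had 233, 238, 186 and 377 reads in cells 1 to 4 and 335 in the discarded cell, and its levels of 5.65, 5.72, 5.39 and 6.26 (SD 0.36) were among the 5 most even of the deeper groups. Nmda1 alone was less even, at 963, 235, 3439 and 365 reads and 707. SPR–frma, with SPR the receptor of sex peptide and of myoinhibitory peptides, had 11, 339, 7 and 28 reads and 694. SPR alone had 1, 0, 6 and 6 reads and 127, and its partner frma alone had 1278, 671, 1 and 169 reads and 50. Cell 2 was highest for the group but not for either gene alone.

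Dh44-R2–fdl, with Dh44-R2 a receptor of the PI peptide DH44 and fdl a hexosaminidase gene, had 1, 232, 7 and 235 reads and 301. Dh44-R2 alone had 2, 155, 1 and 6 reads and 22, so in cell 4 the shared stretch held 96.7% of the reads of both genes. Grd–CG5577, with Grd a subunit of GABA-type chloride channels, had 2, 198, 0 and 170 reads and 467. Grd alone had 0, 6, 0 and 0 reads and 3, whereas CG5577 alone had 463, 53, 0 and 427 reads and 55. Which gene gave the shared reads was not tested. Both groups were high in cells 2 and 4 and near 0 in cells 1 and 3.

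The nicotinic acetylcholine receptor subunits differed. nAChRalpha3–CG1636 had 0, 81, 35 and 78 reads and 401 in the discarded cell, beside 0, 29, 533 and 414 reads of nAChRalpha3 alone and 2234. Its partner CG1636 alone had 0, 96, 0 and 51 reads and 169. Ets21C–nAChRbeta3, in which the receptor gene lies within Ets21C, a stress-response transcription factor gene, had 138, 1, 2 and 69 reads and 4, and nAChRbeta3 had a single read of its own in cell 1 and no STAR read. mAChR-A–CG13578, with a muscarinic receptor, had 90 reads in cell 3 and none in the other kept cells, and 37 in the discarded cell. Its partner CG13578 alone had 348 reads in cell 3, and mAChR-A alone had 8 in cell 3 and 70 in cell 4.

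The groups with other channels were small and uneven. CG18011–KCNQ, with KCNQ a voltage-gated potassium channel, had 92 reads in cell 4 and none in cells 1 to 3, and 94 in the discarded cell, and KCNQ alone had 0, 1, 0 and 42 reads and 88. ClC-c–CG13074, with ClC-c a chloride transporter, had 7, 44, 153 and 13 reads and 123. Grip71–Irk3, with Irk3 an inward rectifier potassium channel, had 0, 2, 45 and 0 reads and 19. CG12325–alka, with alka a chloride channel of the ligand-gated family, had 6, 2, 0 and 39 reads and 35, and rk–NimC2, with rk the receptor of the hormone bursicon, had 0, 31, 0 and 0 reads and 3. These counts are small, and reads in a single cell at this depth do not show that the gene was absent from the others.

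The general secretory pathway was represented by vesicle tethers, fusion proteins and enzymes. MTF-1–Bet3, with Bet3 a subunit of the TRAPP tether and MTF-1 the metal-responsive transcription factor, had 180, 446, 0 and 383 reads and 273 in the discarded cell. Bet3 alone had 68, 27, 0 and 0 reads and 52, so in cell 4 its locus was seen in shared reads and in 151 reads of MTF-1. GC1–Tango9 joins a mitochondrial glutamate carrier with a gene named for a role in Golgi organization, and had 221, 89, 0 and 108 reads and 439. Max–Bet1, with Bet1 a fusion protein between the endoplasmic reticulum and the Golgi, had 183 reads in cell 1, none in cells 2 to 4 and 12 in the discarded cell, although both Max and Bet1 alone had reads in cells 2 and 4. Cell 3 lacked all 3 of these groups.

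Gp93–CG4951, with Gp93 a chaperone of the endoplasmic reticulum, was highest in cell 3, at 13, 8, 124 and 7 reads and 13 in the discarded cell, as was Gp93 alone, at 645, 159, 3095 and 107 reads and 469. CG2006–Spase12, with Spase12 a subunit of the signal peptidase, had 14, 47, 75 and 63 reads and 104. Spase12, which lies within CG2006, had no STAR read in any library, and 5, 19, 15 and 42 MMQuant reads of its own and 53 in the discarded cell. RabX6–Vti1a, with Vti1a a fusion protein of endosomes and the Golgi, had 57, 28, 1 and 44 reads and 434. gro–Exo84, with Exo84 a subunit of the exocyst tether and gro the corepressor Groucho, had 14, 37, 5 and 9 reads and 114. Exo84 alone had 0, 0, 1 and 1 reads and 85, whereas gro alone had 99, 180, 1 and 11 reads and 234. p24-2–Unc-115b, with p24-2 a cargo receptor of early secretory vesicles, had 12, 23, 9 and 62 reads and 89, and the group that adds Unc-115a had 10, 11, 0 and 25 reads and 53. p24-2 had no read of its own in any library.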

How the data were processed

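Single PI cells (4 kept, 1 discarded) were profiled by RNA sequencing. After trimming (Trim Galore, PRINSEQ) the authors aligned reads to the dm6 genome by STAR, with Ensembl release 87 annotation, and deposited 2 tables per cell. The deposited STAR counts are reads that fit a single gene, of which the unstranded column was used. The deposited MMQuant counts are whole reads per gene or per group of genes, and were not normalized. The version of MMQuant is not given in the sources used here.

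Groups with 20 or more reads in at least 1 kept cell were taken. RPM used the MMQuant total of the library (4538000 to 4997042 reads in the kept cells), and levels are log2(RPM + 1). Marker sums used STAR counts per 1e+06 reads assigned to genes. Symbols, positions, strands, exons and untranslated regions came from Ensembl release 115 (BDGP6.54, dm6 coordinates), matched by identifier, so an arrangement can differ from release 87. Of 1500 genes, 1474 had a symbol, and the other 26 had no position. Genes counted alone had at least 1 MMQuant read over cells 1 to 4. Symbols of the lists that were not found directly were matched through RefSeq synonyms.

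Named are the 10 groups with the highest mean level (7 of them ribosomal, of which 4 are given only in the sums), up to 12 groups per gene list, the 10 deepest with no gene counted alone, the 5 smallest and 5 largest SDs among groups with 100 or more reads in at least 1 kept cell, the 5 groups with the most genes, and groups with cell type markers. A few copies that lie apart were named after their values were seen. The groups, lists and markers were chosen with earlier results of these data known. There is 1 condition, so no test between groups was run, and the SD covers 4 cells. Only Dixon's limit for a cell far from the others was applied to the shares and named groups. Calculations used scipy 1.17.1, pandas 2.3.3 and numpy 2.4.6 in Python 3.11.15, and were tested on simulated data, and plots used matplotlib 3.10.9. Alternatives were other read limits, thinning to the lowest total, other denominators and pseudocounts, and leaving out each cell. No sequences are printed, as no genome sequence was used here.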

Additional observations from a re-analysis of the deposited data

Results flagged for a closer look

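Of 69 values examined over the 4 kept cells (3 shares of the library and the levels of the named groups), 11 had a cell whose gap to its nearest neighbor, as a share of the range, exceeded Dixon's 95% limit for 4 values. Chance gives about 1 such flag in 20 for groups taken without regard to their values. That rate does not apply here, since the groups had to reach 20 reads in some cell and several were named for a large or small SD, and a level of 0 in the other 3 cells meets the rule by construction. The flags are given as a description.

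Cell 3 was set apart in 5 groups. Its level, as log2(RPM + 1), was 12.01 for CG30183–Pal2, 8.35 for CG42638–Trpml, 4.38 for mAChR-A–CG13578 and 3.45 for Grip71–Irk3, all above the other cells, and 0.29 for Cys–asRNA:CR44095, below them. Cell 4 was set apart by 4.28 for CG18011–KCNQ, 3.98 for the mod(mdg4) group of 9 genes and 3.29 for the pseudogenes CR43211 to CR43216. Cell 1 was set apart by 5.31 for Max–Bet1 and 2.44 for Yp1–Yp2–asRNA:CR45601, and cell 2 by 2.95 for rk–NimC2. None of the 3 shares of the library met the rule.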

How the results depend on the processing

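Of 36 recomputed values, 29 stayed within 1.5 times the count, or within the spread, of the value given, and 7 moved. A minimum of 100 reads left 467 groups in place of 763. The groups found in all 4 cells fell from 307 to 126 with 20 or more reads in each and to 197 at 1 RPM or more. The median SD was 3.18 with a pseudocount of 0.1 RPM in place of 1.93. The groups with a gene not counted alone rose from 319 to 488 where 20 or more reads over cells 1 to 4 were asked for, and to 483 by STAR's unstranded count. Leaving out the ribosomal groups, chosen after seeing the data, took the mean share of reads from 8.74 to 4.35%.

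Leaving out each cell in turn gave 661 to 725 groups, a share of 7.90 to 9.43%, 306 to 460 groups in all remaining cells, a median SD of 1.61 to 2.19 and 310 to 312 groups with a gene not counted alone. The 460 groups and the SD of 1.61 came without cell 3. The share of convergent pairs was 54.0% for groups of 100 or more reads. With gene spans in place of exons it stayed at 55.6%, but no pair that lay apart had overlapping spans, so this setting could move no pair. No paired analysis was possible because the cells form a single condition. Libraries of 1 cell each limit what a count of 0 shows, and 3 rounds of amplification can turn few molecules into many reads.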

Other observations

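A further 128 groups had 20 or more reads in the discarded cell but not in any kept cell, so they are not among the 763. The 10 largest groups outside the ribosomal genes took 26.8% of such reads in the discarded cell, and 42 groups were needed to reach 50% of them, compared with 9, 11, 12 and 15 groups in cells 1 to 4.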
